A study of Mus musculus with 4 samples.

Results

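Genes that mark reserve and regenerative stem cells of the intestine were compared between young and old intestinal stem cells (ISCs). The members are 9 genes chosen by symbol, Bmi1, Hopx, Tert, Mex3a, Sox9, Krt19, Clu, Anxa1 and Yap1, out of 52459 genes listed in the count table. ISCs were isolated from the small intestine of wild-type C57/Bl6 female mice of 2 months (ISC_2mth) or 22 months (ISC_22mth). The sort was made on surface proteins of the crypt (EPCAM+, EPHB2high, CD44high, CD166+, CD24med and GRP78low cells that lacked CD31 and CD45), with no reporter allele and no treatment. Each age had 2 libraries, each from a pool of 5 animals, and the unit of replication is therefore the pool, in which differences between single animals are averaged. Before sequencing, RNA was amplified with a single-primer isothermal method (SPIA), without molecular identifiers.

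The intestinal crypt holds fast-cycling Lgr5-positive stem cells at its base and other cells that can take over when these are lost. Bmi1, Hopx and Tert were described as marks of reserve cells above the crypt base that cycle slowly under normal conditions, whereas Mex3a, Sox9 and Krt19 mark slow-cycling or damage-resistant cells of the crypt. After injury the epithelium can pass through a fetal-like state, in which the transcription co-activator YAP1 is active and genes such as Clu and Anxa1 are switched on.

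Counts on genes came to between 11662654 and 15975698 per library, and between 62.6% and 73.8% of them fell on mitochondrially encoded genes. Levels below are CPM, counts scaled to the library size after TMM normalization, and 3 counts, taken as the floor, equalled 0.198 to 0.245 CPM. The test was edgeR's quasi-likelihood test on the 13692 genes that exceeded 5 reads and, before TMM normalization, 1 CPM in 1 library or more, with p-values adjusted over all of these by the Benjamini-Hochberg method (FDR). The labelled cell type was checked on marker genes. Lgr5, the receptor that defines crypt base stem cells, lay between 205.9 and 247.9 CPM in the 4 pools, and Olfm4, an abundant secreted protein of these cells, between 1109.6 and 1299.6 CPM. Ptprc, which encodes CD45, had at most 2 counts in any pool, and Vim, a mesenchymal intermediate filament, at most 20 counts. Some markers of secretory cells were abundant. Muc2, the goblet cell mucin, lay between 1012.6 and 1438.3 CPM and Lyz1, the Paneth cell lysozyme, between 203.2 and 748.7 CPM. Chga, an enteroendocrine cell marker, was lower, between 1.93 and 8.14 CPM. In bulk libraries, fewer cells that express a gene and less RNA of that gene per cell cannot be told apart.

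No member was called different between the ages at FDR under 0.05. Of the 9 genes, 7 passed the filter on low counts, and Clu and Anxa1 did not. The count of members called was 0 of 7, where 2.26% of all genes tested were called, 1.63% higher and 0.628% lower in old ISCs. It was also 0 of 7 with limma voom with quality weights (2.34% of all genes), the likelihood ratio test of edgeR (4.46%) and DESeq2 (1.44%). An unadjusted p under 0.05 was reached by 2 of the 7, Tert and Sox9, both with lower values in old ISCs, against 16.9% of all genes tested. The normalized CPM of the ages did not overlap for 5 of the 7, with Hopx higher and Tert, Mex3a, Sox9 and Yap1 lower in both old pools. Among all genes tested the ages did not overlap for 47.6%, with 24.0% higher and 23.6% lower in both old pools. The median log2 fold change of the 7 was -0.15, with 2 values above 0 and 5 below, and that of all genes tested was 0.00.

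**Figure D1:**
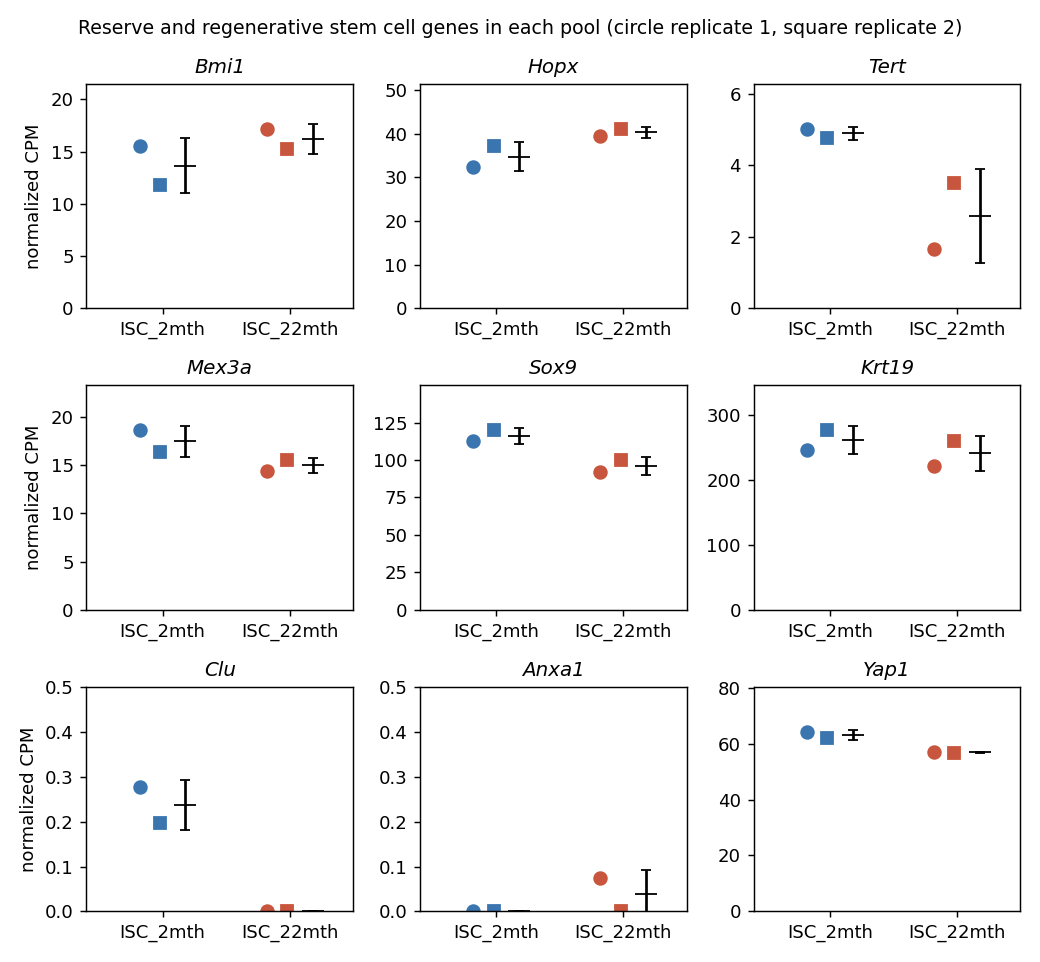
Normalized CPM (y axis, linear from 0) of each of the 9 genes in the ISC_2mth and ISC_22mth pools, with circles for replicate 1, squares for replicate 2, and the mean ± SD (n = 2) in black. Tert sits at 5.03 and 4.76 CPM in young pools and at 1.66 and 3.52 CPM in old pools, while Clu and Anxa1 stay under 0.5 CPM throughout (the lower bar of Anxa1 in old pools is cut at 0).

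Bmi1, a subunit of Polycomb repressive complex 1 (PRC1) that keeps genes silent in many stem cells, lies on chromosome 2 from 18677018 to 18686629 (GRCm38, GENCODE vM21). It had 225 and 178 counts in the ISC_2mth pools and 227 and 186 counts in the ISC_22mth pools. Normalized, young pools held 15.5 and 11.8 CPM and old pools 17.2 and 15.2 CPM, so the ages overlapped. Bmi1 had a log2 fold change of 0.25 (standard error 0.19, 95% interval -0.15 to 0.65, FDR = 0.54). Other loci share 16.7% of the 50-nt stretches in Bmi1 transcripts, so part of its reads may be split, and 1 of these loci, Gm5946, had at most 1 count in any pool.

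Hopx encodes a small homeodomain protein that does not bind DNA itself. It lies on chromosome 5 from 77086988 to 77115121 and had 470 and 561 counts in young and 523 and 504 counts in old ISCs. This equalled 32.4 and 37.1 CPM at 2 months and 39.5 and 41.2 CPM at 22 months. The ages did not overlap, old being higher, and the gap between them was smaller than the distance between the young pools. The log2 fold change of 0.22 (standard error 0.14, 95% interval -0.08 to 0.51) did not pass the test (FDR = 0.46). Hopxos, transcribed antisense to Hopx, shares 412 bp of exon with it (27.2% of the exonic length of Hopx), and without strand information the origin of those reads is unknown. Hopxos itself had between 8 and 22 counts.

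Tert, the catalytic subunit of telomerase, showed the largest log2 fold change, in either direction, of the 7 genes tested. It lies on chromosome 13 from 73626911 to 73649843. Counts were 73 and 72 in the young pools and 22 and 43 in the old pools, or 5.03 and 4.76 CPM against 1.66 and 3.52 CPM. The young pools were nearly equal, and the old pools, both lower, differed from each other by more than the young ones did. Tert averaged 4.90 ± 0.188 CPM in young ISCs and 2.59 ± 1.31 CPM in old ISCs (mean ± SD, n = 2 pools). Its log2 fold change was -0.93 (standard error 0.36), that is 0.527 of the young level, with a 95% interval of 0.313 to 0.886. The unadjusted p was 0.018 and the FDR 0.19, so that Tert was not called. Without ISC_22mth replicate 2 the log2 fold change was -1.55 and the FDR 0.014 (5.22% of all genes called in that fit), and without ISC_22mth replicate 1 it was -0.47 with an FDR of 0.55, so that the call turns on which old pool is used.

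Mex3a, an RNA-binding protein that marks a slow-cycling subset of Lgr5-positive cells, lies on chromosome 3 from 88532395 to 88541396. Young pools had 270 and 246 counts and old pools 190 each. In normalized units these were 18.6 and 16.3 CPM in young pools and 14.4 and 15.5 CPM in old pools. Old pools lay just below young ones, and the log2 fold change was -0.22 (95% interval -0.59 to 0.15, FDR = 0.56). The other members of the MEX3 family were Mex3c, at 31.0 ± 2.75 CPM in young and 33.6 ± 2.62 CPM in old ISCs (FDR = 0.74), Mex3d with a log2 fold change of 0.26 (FDR = 0.74), and Mex3b, which had at most 12 counts and did not pass the filter.

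Sox9, a transcription factor of the crypt base that is needed for Paneth cells and acts downstream of Wnt, was measured with more precision. It lies on chromosome 11 from 112782224 to 112787760. Counts were 1631 and 1812 in the young and 1215 and 1223 in the old pools, which gave 112.4 and 119.9 CPM against 91.8 and 100.0 CPM. Both old pools were lower, and the means of 116.1 ± 5.32 and 95.9 ± 5.81 CPM differed by more than either SD (n = 2 pools per age). The log2 fold change was -0.28 (standard error 0.12, 95% interval -0.53 to -0.03), with an unadjusted p of 0.033 and an FDR of 0.25. Paneth cells also express Sox9, and the 7 Paneth cell markers listed summed to 706.1 and 536.3 CPM in young pools and to 1630.7 and 598.4 CPM in old pools. Without ISC_22mth replicate 1, the pool with the highest sum, the log2 fold change of Sox9 was -0.21. The part of Paneth cells in the Sox9 values was not tested.

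Krt19 is a keratin of simple epithelia, expressed by radiation-resistant crypt cells as well as by much of the epithelium. On chromosome 11 from 100140810 to 100148665, it was the most abundant member, with 3569 and 4178 counts in young and 2935 and 3180 counts in old ISCs. The pools held 245.9 and 276.4 CPM at 2 months and 221.7 and 260.0 CPM at 22 months, and the ages overlapped. The log2 fold change of -0.12 had a 95% interval of -0.36 to 0.13 (FDR = 0.66).

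Clu, the secreted chaperone clusterin that marks rare revival stem cells after injury, was near the floor. It lies on chromosome 14 from 65968483 to 65981547 and had 4 and 3 counts in the young pools and 0 counts in both old pools. These counts equal 0.276 and 0.198 CPM in young ISCs, and 0 counts allow up to 0.227 and 0.245 CPM in the old pools. The young values lie at about this limit, so a difference was not detectable at this depth. With no filter on low counts, the FDR of Clu was 0.49.

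Anxa1, annexin A1, a calcium-dependent phospholipid-binding protein raised in regenerating and fetal-like epithelium, lies on chromosome 19 from 20373428 to 20390944. It had 0 counts in both young pools and 1 and 0 counts in the old pools, and neither age rose above the floor. With no filter, its FDR was 0.80. Because reads were amplified and not counted as molecules, these limits cover counting error only.

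Yap1, the co-activator at the end of the Hippo pathway, was the most even member between replicates. It lies on chromosome 9 from 7931999 to 8004596, with 932 and 936 counts at 2 months and 755 and 694 at 22 months. This gave 64.2 and 61.9 CPM in young and 57.0 and 56.7 CPM in old pools. Old pools lay below young pools by more than the replicates of either age differed, yet the log2 fold change was -0.15 (standard error 0.12, 95% interval -0.41 to 0.11, FDR = 0.58). The standard error of the fit takes its size from the spread of all genes, not from these 4 values alone. Its exons overlap the opposite-strand locus Gm20416 over 116 bp.

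**Figure D2:**
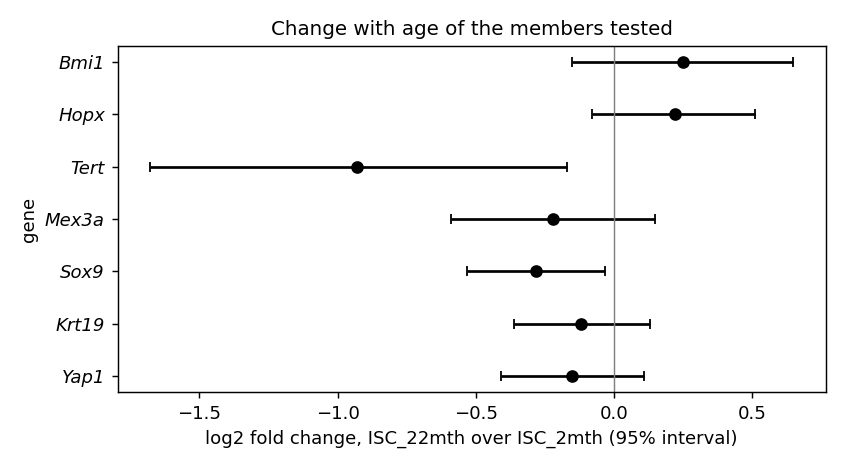
Log2 fold change of old over young ISCs (x axis) for the 7 genes tested, with 95% intervals from edgeR's quasi-likelihood fit. The interval of Tert runs from -1.68 to -0.17 and that of Sox9 from -0.53 to -0.03, and the intervals of the other 5 genes span 0.

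YAP1 has no DNA-binding domain of its own and reaches DNA through TEAD factors, whose core site reads GGAATG. The 250 bases before the RefSeq start were searched on both strands for GGAATG and for the AP-1 site TGANTCA, in RefSeq promoters of GRCm38.p6, which held 6 of the 9 members and not Sox9, Krt19 or Clu. These 6 genes had 7 windows, since Hopx had more than 1. The TEAD core occurred in 3 of the 7 windows, those of Bmi1, Yap1 and Anxa1, and in 12.6% of all 32851 promoter windows. No member's window held TGANTCA, against 6.75% of all windows. The window of Anxa1 and the Hopx window at chr5:77095268-77095517 belong to RefSeq starts inside the genes as GENCODE vM21 places them. They are not upstream of the GENCODE starts, although the 7 windows include both, and the Anxa1 match is not shown. The stretches of Bmi1 and Yap1 are shown with the match in capitals, for the genes that were expressed. They lie at chr2:18676773-18676812 on the plus strand and chr9:8004715-8004754 on the minus strand, and the match begins 228 and 141 bases before the start.
Bmi1: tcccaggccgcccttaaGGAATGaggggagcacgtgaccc
Yap1: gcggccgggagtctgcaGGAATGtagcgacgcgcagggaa
The genes with a match ranged in young ISCs from 0 counts (Anxa1) to 13.6 ± 2.63 CPM (Bmi1) and 63.1 ± 1.61 CPM (Yap1). A match describes these letters and is not evidence of binding.

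Levels of different genes were compared per kilobase of exon. Krt19 had the highest level of the members, with a median over the 4 pools of 136.3 CPM per kilobase and a range of 119.5 to 149.0, above 99.6% of the genes tested that had a length. Sox9 (22.2 to 29.0 CPM per kilobase) and Hopx (21.4 to 27.2) followed, overlapped each other and lay above 97.1% and 97.0% of genes. Yap1 came next at 6.13 to 6.94 CPM per kilobase, above the ranges of Bmi1 (2.96 to 4.32) and Mex3a (2.48 to 3.22), which overlapped. Tert was 4.29 times lower per kilobase than Mex3a on average, at 0.290 to 0.878 CPM per kilobase. Clu and Anxa1 closed the order at no more than 0.0802 and 0.0260 CPM per kilobase, and their ranges overlapped. Among the neighbours that overlapped, Bmi1 lay above Mex3a in each of the 4 pools, whereas Hopx lay below Sox9 in both young pools and above it in both old pools. Clu and Anxa1 were too sparse to order.

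Other genes of reserve and slow-cycling cells were also uncalled. All 5 of the list (Lrig1, Msi1, Msi2, Krt15, Prox1) were tested and had log2 fold changes below 0, with a median of -0.18. Of all 13692 genes tested, 6921 lay below 0. The ages overlapped for Msi1, Msi2 and Prox1, and Krt15 had between 3 and 24 counts. Lrig1, an inhibitor of EGF receptor signalling that restrains stem cell division, had the lowest p. It was at 55.7 and 49.0 CPM in young pools and at 43.3 and 43.7 CPM in old pools, a log2 fold change of -0.27 (FDR = 0.32).

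In the Hippo pathway, 21 of 23 components were tested and 1 was called, Amotl1, which was lower in old ISCs (0.628% of all genes were called lower). Amotl1 encodes an angiomotin that binds YAP1 and holds it at cell junctions. It had 94 and 100 counts in young pools and 33 and 18 counts in old pools, and fell from 6.55 ± 0.0993 CPM at 2 months to 1.98 ± 0.722 CPM at 22 months. Its log2 fold change was -1.71 with a standard error of 0.33 (FDR = 0.0094). Of the 21, 14 had log2 fold changes below 0, and the median was -0.07. The study's list of differentially expressed genes (FDR under 0.05) holds Amotl1 as lower and Sav1 as higher in old ISCs. Sav1 was not called here (FDR = 0.30). Lats1, a kinase that inhibits YAP1, was at 86.1 ± 0.312 CPM in young and 82.1 ± 3.26 CPM in old ISCs, with a log2 fold change of -0.07 (FDR = 0.82). Tead1, the TEAD factor with the highest level per kilobase, had between 925 and 983 counts in young and between 662 and 715 counts in old pools (FDR = 0.32), and was named after its values were seen.

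Many target genes of YAP had few counts. Of 22 listed, 11 were tested, 7 had at most 3 counts in every library, and none was called. Cyr61, a matricellular protein and a direct YAP target, had the lowest p. It had 72 and 57 counts in young pools and 20 and 30 counts in old pools, and the levels of 4.96 and 3.77 CPM at 2 months and 1.51 and 2.45 CPM at 22 months did not overlap. Its log2 fold change was -1.14 (95% interval -1.92 to -0.36), with an FDR of 0.12. Cyr61 was called without ISC_22mth replicate 2 (-1.52, FDR = 0.029) and under total counts (-1.63, FDR = 0.0021), and its FDR was 0.59 without ISC_2mth replicate 1. Gadd45a, the other gene at an unadjusted p under 0.05, was higher in both old pools (log2 fold change 0.53, FDR = 0.26). It was named after its values were seen. The median of the 11 was -0.22, with 4 above 0 and 7 below.

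The fetal-like and regenerating epithelium list, to which Clu and Anxa1 relate, was sparse as well. Of its 28 genes, 13 passed the filter and 7 had 0 counts in every library. Of the 13, none was called, 8 had log2 fold changes above 0 and 5 below, and the median was 0.16. Tm4sf4, a tetraspanin-like membrane protein, had the lowest p, with 2.69 and 3.11 CPM in young and 6.12 and 3.84 CPM in old pools (log2 fold change 0.78, FDR = 0.23). Among the other annexins, 6 of 11 were tested with a median of 0.23 and none called. The study's list of differentially expressed genes holds Anxa4 as higher in old ISCs. Anxa7 was at 13.4 ± 0.238 CPM in young and 18.7 ± 1.71 CPM in old ISCs (FDR = 0.17). Of 5 other epithelial keratins none was called, and Krt20, a keratin of differentiated cells, came closest, at 9.14 ± 2.60 CPM in young and 16.0 ± 3.44 CPM in old ISCs (log2 fold change 0.81, FDR = 0.068). Krt20 had an FDR under 0.05 in 5 of the 17 alternatives, in which its FDR ranged from 0.00068 to 0.46.

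For Bmi1, the other genes of PRC1 were examined. All 17 were tested, none was called, and their median log2 fold change was -0.07, with 6 above 0 and 11 below. Yaf2, which belongs to variant PRC1 complexes, had the lowest p and lay at 5.30 and 5.95 CPM in young and at 9.52 and 9.49 CPM in old pools (log2 fold change 0.75, FDR = 0.099). Cdkn2a, the best known target of Bmi1 and a marker of senescence, had 0 counts in all 4 pools. Its neighbour Cdkn2b had 15 and 25 counts in young and 22 and 39 counts in old pools, and a log2 fold change of 0.84 (FDR = 0.43).

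Of the genes that act with Tert in telomerase and at telomeres, 13 of 14 were tested and none was called, with a median of -0.09. The RNA template Terc had at most 2 counts in any pool. Wrap53, which brings telomerase to Cajal bodies, had the lowest p of the list. Its counts were 51 and 47 in young pools and 26 and 18 in old pools, at 3.31 ± 0.286 against 1.72 ± 0.348 CPM, with a log2 fold change of -0.94 and an FDR of 0.24. Dkc1, the dyskerin of the same particle, was at 58.5 CPM in young and 67.1 CPM in old ISCs (FDR = 0.48), and was named after its values were seen.

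**Figure D3:**
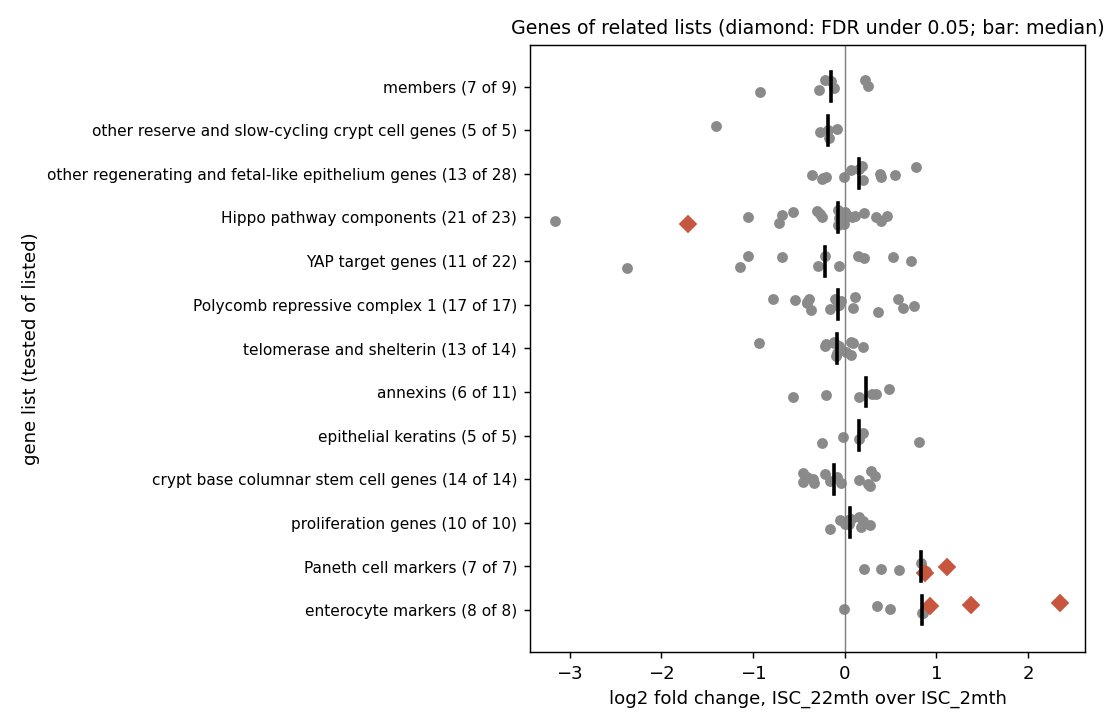
Log2 fold change of old over young ISCs (x axis) for the genes tested in the members and 12 other lists, with diamonds for FDR under 0.05, circles for the other genes and a bar at each median. Amotl1 is the diamond at -1.71 in the Hippo list, and the diamonds above 0 are 2 Paneth cell and 3 enterocyte markers.

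Canonical crypt base stem cell genes were likewise uncalled by edgeR's quasi-likelihood test, in 14 of 14 tested. Their median was -0.12, with 5 values above 0 and 9 below. The study's list of differentially expressed genes (FDR under 0.05) holds Axin2, Rnf43 and Cdk6 as lower and Slc12a2 as higher in old ISCs. An unadjusted p under 0.05 was reached by 9 of the 14, where 16.9% of all genes tested did so, and these 9 went both ways: 5 were lower in old ISCs (Axin2, Rnf43, Tnfrsf19, Cdk6 and Rgmb) and 4 higher (Ascl2, Slc12a2, Aqp4 and Prom1), named after their values were seen except Axin2. Ascl2, a transcription factor of Lgr5-positive cells, was at 42.4 and 43.5 CPM in young and 54.0 and 53.8 CPM in old pools (log2 fold change 0.33, FDR = 0.20). Axin2, a Wnt target, came nearest, at 148.5 and 127.8 CPM in young and 101.8 and 98.5 CPM in old pools (log2 fold change -0.46, FDR = 0.051). Axin2 had an FDR under 0.05 in 13 of the 17 alternatives, in which its FDR ranged from 2.8e-05 to 0.48. Lgr5 averaged 231.0 ± 23.9 CPM in young and 207.1 ± 1.75 CPM in old ISCs (FDR = 0.52).

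Among the markers of other cell types, calls were made in the enterocyte, Paneth cell, tuft cell and leukocyte lists, and in the last 3 of these lists every call was lost in at least 1 fit that left out a pool. Of 8 enterocyte markers, 3 were called higher in old ISCs, Fabp1, Sis and Fabp2, and the list summed to 331.8 and 459.9 CPM in young and to 787.5 and 661.4 CPM in old pools. Fabp1, a fatty acid-binding protein, rose from 17.4 ± 1.07 to 88.1 ± 40.2 CPM (FDR = 2.4e-06). Of 7 Paneth cell markers, 2 were called higher, Defa17 and Defa24, and Lyz1 was at 748.7 CPM in ISC_22mth replicate 1 against 203.2 to 310.6 CPM in the other pools. Without that pool, the log2 fold change of Defa17 was 0.40 in place of 1.11 and that of Defa24 0.20 in place of 0.87, and neither was called. Of 3 tuft cell markers tested, Pou2f3 (log2 fold change -0.21) and Trpm5 (0.94) had overlapping ages and were not called. Dclk1 was called higher, with 4 and 4 counts in young and 42 and 19 in old pools (FDR = 0.026). Its FDR was 0.25 without ISC_22mth replicate 1, 0.069 without ISC_2mth replicate 1 and 0.051 without ISC_2mth replicate 2.
No goblet or enteroendocrine cell marker was called, and Chga lay between 1.93 and 8.14 CPM. Of 12 leukocyte markers, 7 had 0 counts in every library, and Itgam, the only one tested, was called higher (FDR = 0.030), which did not hold without ISC_2mth replicate 1 (FDR = 0.29). Endothelial markers summed to at most 0.654 CPM and mesenchymal and muscle markers to at most 3.77 CPM. Among the genes of the sorted surface proteins, Cd24a was called higher (306.2 ± 38.3 to 491.0 ± 23.5 CPM, FDR = 0.0035). Ephb2, whose protein was sorted as high and which was named after its values were seen, had 58.9 and 51.5 CPM in young and 35.5 and 41.6 CPM in old pools, a log2 fold change of -0.52 that was not called (FDR = 0.058). The study's list of differentially expressed genes holds Ephb2 as lower in old ISCs. Cd44 had a log2 fold change of -0.24 (FDR = 0.37) with overlapping ages. The part of these markers in the values of the 9 genes was not tested.

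Likeness between genes was measured as the root-mean-square difference of log2 CPM, centred on each gene's mean, over the 4 pools, and the nearest of 157 genes from the other lists is given for each member. The nearest gene was Lats1 for Yap1 (0.0523), Cdk1 for Mex3a (0.0330), Krt7 for Sox9 (0.0584), Cbx6 for Krt19 (0.0468), Alcam for Hopx (0.0252), Pot1a for Bmi1 (0.0956) and Cyr61 for Tert (0.166). With 4 pools such likeness is common, since between 26 and 273 of all genes tested lay as close to each member.

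The values of the members were also compared under another scaling of the libraries. Scaling by total counts, in which mitochondrially encoded RNA takes a larger share in old ISCs, moved all genes, by a median log2 fold change of -0.49. Under it 5 of the 7 genes had FDR under 0.05, all lower (Tert, Mex3a, Sox9, Krt19 and Yap1), while 33.8% of all genes were called, 33.1% lower and 0.701% higher. Relative to that shift, the values were -0.92 for Tert, -0.27 for Sox9, -0.22 for Mex3a, -0.15 for Yap1, -0.11 for Krt19, 0.22 for Hopx and 0.24 for Bmi1, close to those after TMM normalization.

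**Figure D4:**
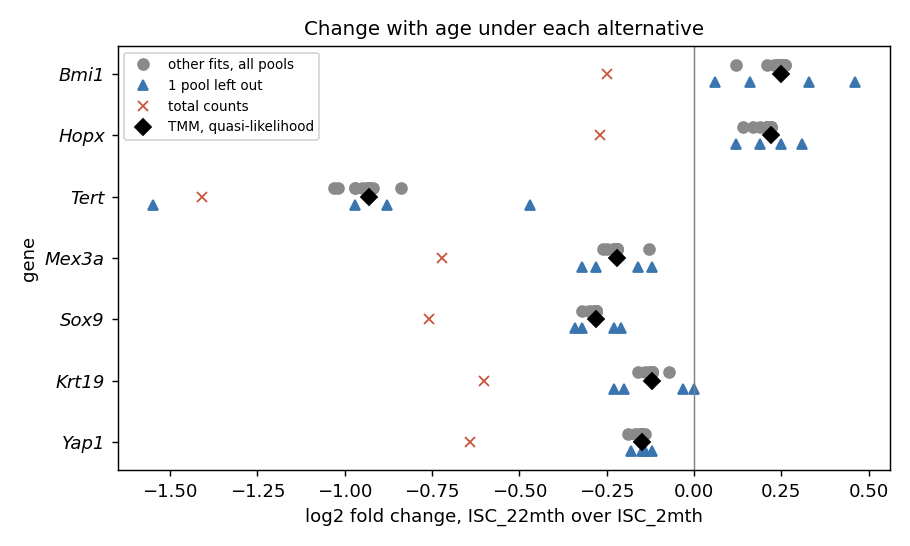
Log2 fold change of old over young ISCs (x axis) for each gene tested, with a diamond for TMM and the quasi-likelihood test, circles for the other fits on all pools, triangles for fits with 1 pool left out and crosses for total counts. Bmi1 and Hopx cross 0 only under total counts, and Tert spans -1.55 to -0.47 when a pool is left out.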

How the data were processed

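The 4 libraries were made from pools of 5 animals each. The authors trimmed reads with Trimmomatic 0.30, aligned them with STAR 2.4.2a to GRCm38, counted exonic reads per GENCODE vM15 gene with featureCounts, and deposited raw counts. The strand setting and the treatment of multi-mapping reads are not given in the sources used here. Pools of an age were checked for a library deposited more than once, and their counts were not duplicates (chi-square per gene 9.42 and 7.11).

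The study's filter (over 5 reads and over 1 CPM of raw totals in 1 library or more) kept 13692 of 52459 genes. Ages were compared without covariates by glmQLFit and glmQLFTest of edgeR 4.0.16 (R 4.3.3) after TMM normalization, at a Benjamini-Hochberg FDR of 0.05. Standard errors came from the log2 fold change and F. The study's limma voom with quality weights (limma 3.58.1), the likelihood ratio test and DESeq2 1.42.0 were alternatives, beside other scalings, filters, GC content and length offsets (lowess, span 0.3), a replicate block and each pool left out. Depth was between 11662654 and 15975698 counts.

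Lengths and positions came from GENCODE vM21 by symbol (47976 genes matched). The members and lists were chosen with earlier results of these data known. Named genes are the 9 members, up to 3 genes called per list or else the gene of lowest p, defining cell type markers, and the nearest gene to each member.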

Additional observations from a re-analysis of the deposited data

How the results depend on the processing

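Of 17 alternatives, those with all 4 pools and a scaling other than total counts called none of the 7 members tested and turned none of their directions. Clu and Anxa1 were tested only with no filter and were not called. Total counts gave 5 called members, with log2 fold changes of -1.41 for Tert (FDR = 0.0039), -0.72 for Mex3a, -0.76 for Sox9, -0.60 for Krt19 and -0.64 for Yap1, and turned Bmi1 to -0.25 and Hopx to -0.27. It also turned Mex3c to -0.38, Anxa7 to -0.01, Pcna to -0.21, Cdkn1a to -0.07, Spink4 to -0.30, Muc2 to -0.38, Chga to -0.09, Pot1a to -0.41 and Alcam to -0.30, and called lower 48 genes of the related lists, which here leave out the members, the crypt base stem cell genes, the markers of other cell types and the sort markers. Offsets for GC content and length turned Cbx6 to 0.02.

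The number of genes called was 309, and became 4632 with total counts, 611 with the likelihood ratio test, 197 with DESeq2, 554 with no filter, 624 with the replicate block, 137 with the offsets, and between 151 and 710 with a pool left out. Genes of related lists called higher went from 0 to 1 with the likelihood ratio test, no filter and the replicate block, and those called lower from 1 to 2 with the likelihood ratio test and the replicate block. With a pool left out, in fits that take the lone pool to vary like the others, members called ranged from 0 to 1, related genes called higher from 0 to 1 and lower from 1 to 3. The log2 fold change then ranged from -1.55 to -0.47 for Tert, 0.06 to 0.46 for Bmi1, 0.12 to 0.31 for Hopx, -0.32 to -0.12 for Mex3a, -0.34 to -0.21 for Sox9, -0.23 to 0.00 for Krt19 and -0.18 to -0.12 for Yap1, and also from -0.16 to 0.47 for Spink4, -0.19 to 0.03 for Olfm4, -0.40 to 1.48 for Lyz1, -0.16 to 0.33 for Muc2, -0.31 to 1.75 for Chga and -0.09 to 0.28 for Pot1a. The cause of these moves was not tested. Pools of the same number are different animals, and whether they were handled together is not given in the sources used here. The correlation of their deviations was -0.000148. The replicate block called none of the members, with an FDR of 0.094 for Tert. Clu and Anxa1 had at most 4 counts in any pool, too few to compare the ages. The cause of these low counts was not tested.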

Other observations

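Of 10 proliferation genes listed, all were tested, none was called by edgeR's quasi-likelihood test (1 at an unadjusted p under 0.05), and their median log2 fold change was 0.06. Pcna, the sliding clamp of DNA replication, was at 44.2 and 40.4 CPM in young and at 49.0 and 53.9 CPM in old pools (log2 fold change 0.28, FDR = 0.29). Cdk1, the kinase that starts mitosis, was at 22.6 ± 1.93 CPM in young and 20.3 ± 0.912 CPM in old ISCs (FDR = 0.67). Among the CDK inhibitors, 2 of 3 were tested and none was called. Cdkn1a, which encodes p21, was at 4.68 and 6.68 CPM in young and at 8.54 and 6.62 CPM in old pools, which overlap (FDR = 0.45). Spink4, a goblet cell product, had 98.6 and 122.5 CPM in young and 153.4 and 98.6 CPM in old pools (FDR = 0.59). The enteroendocrine hormone Gip was at 0.827 and 1.72 CPM in young and at 6.65 and 1.72 CPM in old pools, a log2 fold change of 1.71 (FDR = 0.10) that was 0.43 without ISC_22mth replicate 1 (FDR = 0.83) and 2.37 without ISC_22mth replicate 2 (FDR = 9e-06). Pdgfrb, a pericyte receptor, was at 1.93 and 2.05 CPM in young and at 1.28 and 0.164 CPM in old pools (FDR = 0.30).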
